A study of Mus musculus with 19 samples.

Results

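Microglia genes were followed in the brain of SCA17 knock-in (KI) mice. The 41 genes were chosen by name as known microglial and myeloid genes, with earlier results of these data known. All 41 matched a row of the count table of 41128 Ensembl genes through the GENCODE M21 gene names. All 41 also passed the filter on low counts, which kept 16841 genes. The tissues were cerebellum, striatum and prefrontal cortex, taken from C57BL/6 mice at 3 months of age. KI mice carried an expanded CAG repeat in Tbp in the germline, so that mutant TATA box-binding protein is made in every cell, microglia and neurons alike, and the controls were wild-type (WT) littermates of the same age. The line was derived from a floxed Tbp allele recombined by EIIa-Cre and then bred to WT mice, and it does not limit the mutation to any cell type. There were 19 libraries, 4 KI and 3 WT from cerebellum and 3 per genotype from each forebrain region. The labels number the libraries within each region and genotype and give no sex, and the protocol speaks of 3 to 4 mice per genotype. Libraries are therefore the units of the tests. The p-values set each difference against the spread between libraries, estimated over all 6 groups of region and genotype in 1 fit. By Xist and Y-linked counts, KI 1 and KI 2 of both forebrain regions read as male and KI 3 as female. WT 1 there read as male and WT 2 and WT 3 as female, so sex and genotype are partly confounded in the forebrain. In the cerebellum KI 2, KI 4 and WT 3 read as male and the others as female.

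Microglia are the resident macrophages of the brain parenchyma. In the healthy brain they hold a homeostatic state, kept up by signals such as the ligands of Csf1r, in which they survey neurons through receptors such as Cx3cr1 and P2ry12. When they meet dying cells or interferon they raise Fc receptors, lysosomal proteases and phagocytic receptors, and often lower part of the homeostatic set. The members were therefore read in 3 groups. There were 12 homeostatic members, 14 members of activation and phagocytosis, and 15 myeloid members shared with other leukocytes. In bulk tissue, fewer or more microglia and less or more RNA per microglial cell cannot be told apart.

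Library totals ranged from 10639110 to 17431284 counts. In the cerebellum the KI totals (15695641 to 17431284) lay above the WT totals (11975768 to 15162265), and levels are therefore given as CPM, counts per 1000000 of the TMM-scaled library size. Tbp itself read 48.5 to 56.6 CPM in cerebellum KI and 52.5 to 62.0 in cerebellum WT, which does not test the repeat, because reads of both alleles are counted together. Choroid plexus markers set 2 cerebellum libraries apart, KI 3 with a summed 4967 CPM and WT 1 with 1980, against 20.9 to 45.0 in the other cerebellum libraries. The leading count is also given without these 2 libraries. In the striatum these markers summed to 4271 to 7255 CPM in KI and 1563 to 9010 in WT. In the prefrontal cortex they summed to 23.2 to 53.1 in KI and 16.0 to 29.1 in WT. What choroid plexus RNA contributes to the striatal values was not tested.

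The promoters of the 4 members with the smallest adjusted p in the cerebellum are shown first, since these members carry the comparison. They are Ctss (cathepsin S, a lysosomal protease), Cd68 (a lysosomal membrane glycoprotein), Fcer1g (the signalling chain shared by activating Fc receptors) and Lgals9 (galectin-9). Each run is RefSeq sequence of GRCm38.p6 upstream of the transcription start, 5′ to 3′ on the gene's strand, and ends at the base before any GENCODE exon.
Ctss, chr3:95526536-95526785, plus strand: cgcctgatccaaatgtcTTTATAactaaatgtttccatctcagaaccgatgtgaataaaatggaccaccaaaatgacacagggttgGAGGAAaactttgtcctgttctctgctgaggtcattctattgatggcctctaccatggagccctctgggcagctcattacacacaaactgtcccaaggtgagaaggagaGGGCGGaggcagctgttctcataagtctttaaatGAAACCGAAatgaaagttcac
Cd68, chr11:69666171-69666420, minus strand: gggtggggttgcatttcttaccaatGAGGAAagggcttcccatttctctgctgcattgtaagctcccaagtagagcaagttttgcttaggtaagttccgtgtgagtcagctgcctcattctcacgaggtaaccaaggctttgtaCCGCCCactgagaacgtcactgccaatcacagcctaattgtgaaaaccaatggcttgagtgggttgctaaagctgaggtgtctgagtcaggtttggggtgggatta
Fcer1g, chr1:171234366-171234599, minus strand: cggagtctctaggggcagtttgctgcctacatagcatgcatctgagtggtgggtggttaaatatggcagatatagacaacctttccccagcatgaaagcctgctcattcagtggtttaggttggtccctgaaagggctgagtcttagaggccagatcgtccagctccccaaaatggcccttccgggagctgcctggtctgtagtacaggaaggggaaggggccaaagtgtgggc
Lgals9, chr11:78984947-78985174, minus strand: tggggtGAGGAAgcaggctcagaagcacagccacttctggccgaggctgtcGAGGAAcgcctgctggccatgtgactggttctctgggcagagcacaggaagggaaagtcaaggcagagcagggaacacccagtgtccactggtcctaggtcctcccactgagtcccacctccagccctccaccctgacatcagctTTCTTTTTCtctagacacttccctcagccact
Capitals mark 4 motifs searched on both strands, GAGGAA (the core bound by PU.1, the product of the member Spi1), GAAANNGAA (interferon regulatory factors), TATAAA (the TATA box that TBP binds) and GGGCGG (SP1). In Ctss they mark, in order, the TATA box letters read on the other strand, the PU.1 core, the SP1 letters and GAAACCGAA, which starts 21 bases before the start site. In Cd68 they mark the PU.1 core and the SP1 letters read on the other strand. In Lgals9 they mark the PU.1 core at 2 places and TTCTTTTTC, the interferon regulatory factor letters on the other strand. Fcer1g held none of the 4.

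The table of promoters held 31 of the 41 members, with 39 promoters in all. GAGGAA stood in the 250 bases upstream in 17 of these 39 promoters (43.6%) and in 23.3% of all 32851 promoters. Among the groups it was in 2 of 10 promoters of homeostatic members, 7 of 12 of activation members and 8 of 17 of shared myeloid members. GAAANNGAA was in 3 of 39, those of Ctss, Lgals9 and Aif1, and in 7.13% of all promoters. TATAAA was in 4 of 39 (10.3%) against 12.4% of all, and GGGCGG in 10 of 39 (25.6%) against 32.7%. These are descriptions of letters, and binding was not measured.

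WT regional levels give the baseline for the KI comparisons. Microglia genes were lower in the WT cerebellum than in either forebrain region. Of the 41 members, 38 were called lower than in the striatum and 36 lower than in the prefrontal cortex (edgeR, quasi-likelihood test, p-values adjusted by Benjamini-Hochberg over all tested genes, threshold 0.05). The background is high here, since 28.7% of all genes were called lower than in the striatum and 26.9% lower than in the prefrontal cortex, against 92.7% and 87.8% of the members. The summed level of the 41 members was 334 to 372 CPM in the WT cerebellum, 1074 to 1218 in the WT striatum and 1160 to 1242 in the WT prefrontal cortex. Coro1a alone gave 93.3 to 117 CPM of this sum in the cerebellum, 54.1 to 94.5 in the striatum and 154 to 214 in the prefrontal cortex.

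All 12 homeostatic members were lower in the cerebellum than in the striatum. P2ry12, the ADP receptor that guides microglial processes, read 11.5, 12.9 and 14.4 CPM in the WT cerebellum, 69.3, 63.0 and 69.9 in the striatum and 66.1, 57.9 and 58.0 in the prefrontal cortex. The cerebellum lay far below both, with a log2 difference of -2.38 ± 0.11 (SE) from the striatum (adjusted p = 2.16e-11) and of -2.23 ± 0.11 from the prefrontal cortex (adjusted p = 5.77e-11). Cx3cr1, the fractalkine receptor, differed from the striatum by -2.56 ± 0.14, Csf1r by -2.26 ± 0.15 and Tmem119, a microglial membrane protein, by -2.42 ± 0.22. The largest difference in the group was that of the fructose transporter Slc2a5, -3.49 ± 0.39. The striatum and prefrontal cortex overlapped for 12 of 12 homeostatic members.

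A few members did not follow that order. Coro1a, an actin-binding coronin of leukocytes, exceeded its striatal level in the cerebellum (log2 difference 0.61 ± 0.16, adjusted p = 0.0040) and was below its prefrontal level (-0.78 ± 0.16, adjusted p = 0.00059). Lyz2, the lysozyme of macrophages, monocytes and neutrophils, and Lcp1, the actin bundler L-plastin, did not pass the test against either region. Fcgr1, Tlr2 and Runx1 did not pass it against the prefrontal cortex. Lgals9 was lower in the cerebellum by less than most, -0.76 ± 0.19 from the striatum (adjusted p = 0.0031).

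Between the striatum and prefrontal cortex 4 members were called, 2 higher in the striatum, where 14.0% of all genes were called higher, and 2 lower, where 16.4% were. Cd68 was higher in the striatum (log2 difference 0.77 ± 0.14, adjusted p = 0.00047), with 29.7, 32.1 and 29.0 CPM against 17.7, 16.1 and 19.3. The pattern-recognition receptor Tlr2 was also higher (1.18 ± 0.30, adjusted p = 0.0062). Coro1a (-1.39 ± 0.16, adjusted p = 6.87e-06) and the inhibitory Fc receptor Fcgr2b (-0.74 ± 0.25, adjusted p = 0.032) were lower. Choroid plexus markers were called higher in the WT striatum in 6 of 6 cases, and their part in these differences was not tested. Libraries of these 2 regions that share genotype and number deviated together, and with that pairing as a block 4 members were again called.

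**Figure D1:**
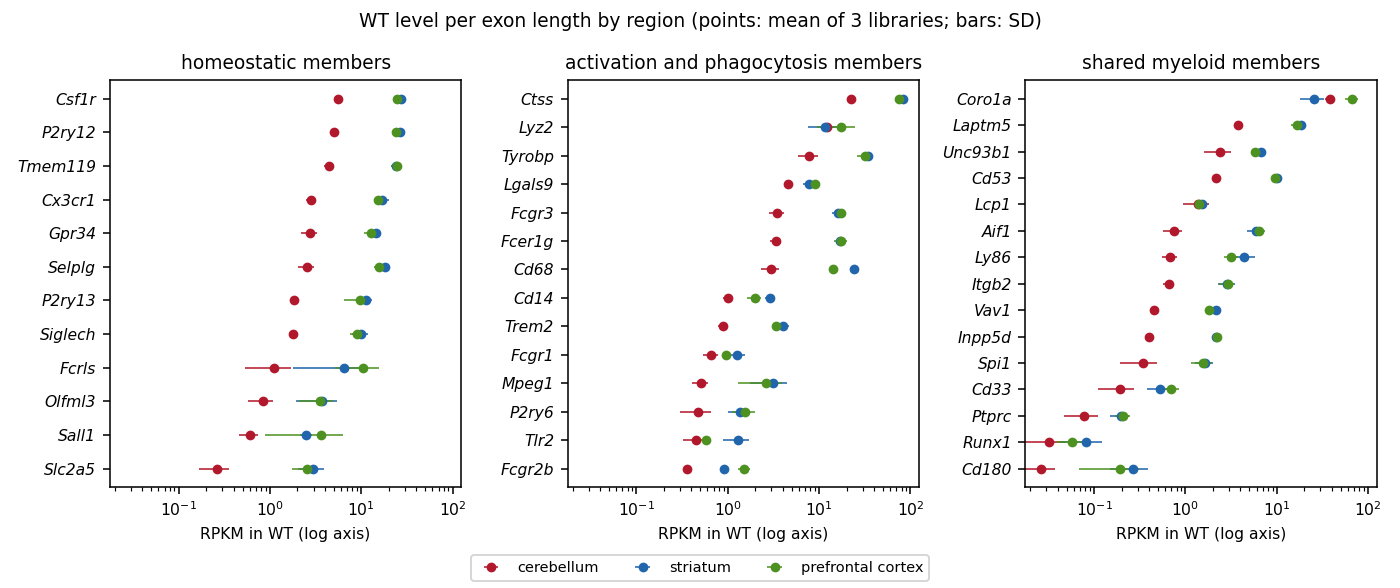
Mean level per exon length (RPKM, which is CPM per kilobase of exon, log axis) of each member in the 3 WT libraries of each region, with SD, by member group. Cerebellum points lie to the left of both forebrain regions for most members, and Coro1a and Lyz2, whose cerebellum points lie between those of the striatum and the prefrontal cortex, are exceptions.

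Per exon length (RPKM), the scale on which levels of different genes can be set side by side, Coro1a stood first in the WT cerebellum at 38.7 ± 4.5 RPKM (SD, n = 3). Which cells gave the Coro1a reads was not tested. Ctss was the second at 22.1 ± 0.22, followed by Lyz2 at 12.3 ± 2.1 and Tyrobp, the adaptor of Trem2 and other receptors, at 7.74 ± 1.89. Csf1r (5.59 ± 0.42) and P2ry12 (5.08 ± 0.57) followed, and these neighbours did not differ beyond their SDs. The lowest members were Ptprc (CD45) at 0.078 ± 0.031, Runx1 at 0.032 ± 0.016 and Cd180 at 0.026 ± 0.011. In the striatum Ctss was the first at 83.1 ± 6.2 RPKM and Coro1a fell to rank 5 at 25.4 ± 7.6, a place within its SD of Csf1r (26.9 ± 2.5) and Cd68 (24.1 ± 1.3). Of the 41 members, 16 had under 30 counts in at least 1 WT cerebellum library, which limits what the test could detect there.

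In the KI cerebellum most microglia genes read higher than in WT. Of the 41 members, 39 had a positive KI effect, 14 were called higher and 0 lower, where 0.517% of all genes were called higher and 34.1% of the members were. An unadjusted p under 0.05 was reached by 28 members, and DESeq2 called 18. The median log2 fold change of the members was 0.74, against 0.007 over all tested genes. In 27 members each of the 4 KI libraries lay above each of the 3 WT libraries, 65.9% of the members against 5.82% of all genes. The members were chosen with earlier results of these data known, so these shares describe them and do not test an enrichment. The summed level of the 41 members was 480 to 585 CPM in KI and 334 to 372 in WT, still below each forebrain group. Coro1a alone gave 98.0 to 112 CPM of this sum in KI and 93.3 to 117 in WT.

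The count of 14 depends on the fit. It was 7 with the cerebellum fitted alone and 7 in limma voom with the replicate number as a random block. It was 7 without WT 3 and 8 without WT 2, and 10 without the 2 libraries high in choroid plexus RNA. The random block joined libraries of the same genotype and number across regions. The log2 ratio of Xist to Y-linked counts was 8.27 in cerebellum KI 1 and -9.89 in striatum KI 1. Its sign also differed between cerebellum and striatum for WT 1 and WT 3, so that block did not follow single mice. Ctss, Cd68, Fcer1g, Lgals9, Tyrobp and Laptm5 were called under each of the 29 alternatives, and the members listed in the other calls below were lost under at least 1 of them.

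**Figure D2:**
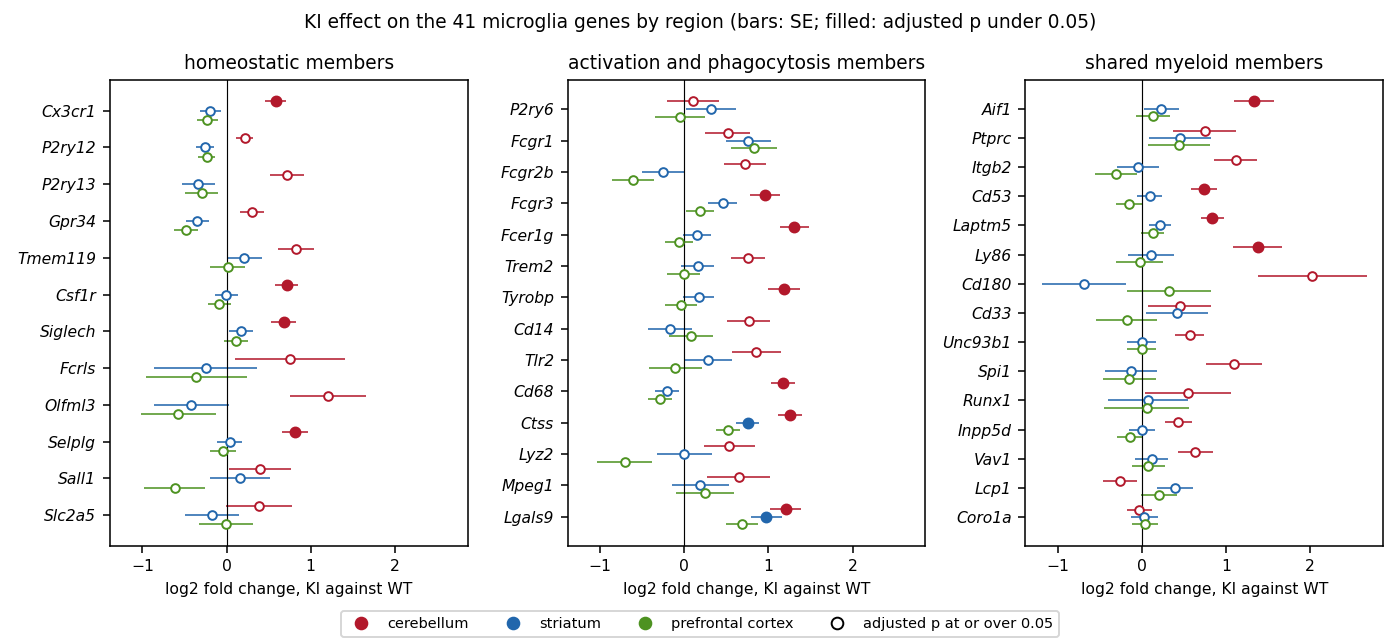
Log2 fold change of KI against WT (x axis) with its SE for the 41 members in the cerebellum, striatum and prefrontal cortex, by member group, with filled points for an adjusted p under 0.05. In the cerebellum 14 points are filled and lie to the right of 0, in the striatum those of Ctss and Lgals9 are filled, and in the prefrontal cortex none is.

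Ctss, Cd68 and Lgals9 rose in the KI cerebellum. Ctss read 83.4, 68.6, 61.8 and 72.7 CPM in cerebellum KI and 30.3, 29.7 and 30.1 in WT. The lowest KI library held over 2 times the highest WT library, and the log2 fold change was 1.26 ± 0.14 (adjusted p = 0.00014). Cd68 read 8.89, 7.82, 7.96 and 8.89 CPM in KI and 2.83, 4.00 and 4.37 in WT, again without overlap (1.17 ± 0.15, adjusted p = 0.00033). Lgals9 read 22.4, 26.2, 21.1 and 19.8 CPM in KI and 10.1, 10.0 and 8.90 in WT (1.21 ± 0.18, adjusted p = 0.0021). Galectin-9 is a sugar-binding protein that immune cells secrete.

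The signalling chains Fcer1g and Tyrobp rose, and so did the receptor Fcgr3. Fcer1g read 7.66, 8.37, 6.33 and 6.59 CPM in KI and 2.57, 3.34 and 2.83 in WT, a log2 fold change of 1.31 ± 0.17 (adjusted p = 0.00053). Fcgr3, an activating IgG receptor that signals through that chain, read 14.4, 9.98, 10.4 and 12.3 CPM in KI and 7.33, 5.04 and 5.74 in WT (0.96 ± 0.18, adjusted p = 0.0097). Neither overlapped between genotypes. Tyrobp read 12.6, 10.1, 10.5 and 13.5 CPM in KI and 3.73, 6.09 and 5.66 in WT (1.18 ± 0.19, adjusted p = 0.0034). Trem2, the lipid receptor that signals through Tyrobp, had all 4 KI libraries above the WT libraries but did not pass the test (0.76 ± 0.20, adjusted p = 0.11).

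In the activation group 14 of 14 members had a positive estimate, 6 were called and the median log2 fold change was 0.81. The 8 not called included the high-affinity IgG receptor Fcgr1 (0.52 ± 0.27), Fcgr2b (0.72 ± 0.25), the lipopolysaccharide co-receptor Cd14 (0.76 ± 0.26) and Tlr2 (0.86 ± 0.29). Lyz2 gave 0.53 ± 0.30, the pore-forming Mpeg1 0.64 ± 0.37 and the UDP receptor P2ry6 0.10 ± 0.31. The sequences of Fcgr2b and Fcgr3, and of Lyz2 and its neighbour Lyz1, are close to each other, and how their reads were split is uncertain.

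Among the homeostatic genes in the KI cerebellum, the estimate was positive for 12 of 12, 4 were called higher, and the median was 0.70. Cx3cr1 read 18.9, 20.01, 18.3 and 19.8 CPM in KI and 12.4, 14.6 and 11.4 in WT, a log2 fold change of 0.58 ± 0.13 (adjusted p = 0.038). Csf1r, the receptor microglia need to survive, read 64.2, 44.1, 44.0 and 59.4 CPM in KI and 35.0, 30.3 and 31.6 in WT (0.71 ± 0.13, adjusted p = 0.013). In both genes the genotypes did not overlap. Siglech, a sialic acid-binding lectin (0.68 ± 0.15, adjusted p = 0.034), and Selplg, the P-selectin ligand (0.82 ± 0.16, adjusted p = 0.014), were the other two called.

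P2ry12 differed least among the homeostatic members. It read 17.1, 14.9, 12.6 and 15.4 CPM in KI and 11.5, 12.9 and 14.4 in WT. The genotypes overlapped and the log2 fold change of 0.22 ± 0.10 did not pass the test (adjusted p = 0.49). Tmem119 read 27.1, 19.4, 12.6 and 14.3 CPM in KI and 11.5, 10.4 and 9.06 in WT. Its groups did not overlap, but the KI libraries were spread over more than 2-fold and the effect missed the threshold (0.83 ± 0.21, adjusted p = 0.084). The lysophosphatidylserine receptor Gpr34 gave 0.30 ± 0.14, the ADP receptor P2ry13 0.72 ± 0.20 and Sall1, a transcription factor of microglial identity, 0.40 ± 0.37. Olfml3 (1.21 ± 0.45), Fcrls (0.75 ± 0.65) and Slc2a5 (0.38 ± 0.39) had wide errors.

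Among the 15 shared myeloid members 13 had a positive estimate, 4 were called higher, and the median was 0.74. Aif1, which encodes the calcium-binding protein Iba1 used to stain microglia, read 2.59, 3.38, 2.63 and 2.90 CPM in KI and 0.835, 1.38 and 1.21 in WT (1.33 ± 0.23, adjusted p = 0.0067). These Aif1 values rest on few counts, 46 to 61 in KI libraries and 13 to 21 in WT libraries. Laptm5, a lysosomal membrane protein of blood-derived cells, read 29.4, 24.9, 21.4 and 24.8 CPM in KI and 15.0, 13.6 and 13.7 in WT (0.84 ± 0.14, adjusted p = 0.0039). Neither overlapped between genotypes. Ly86 (1.37 ± 0.30, adjusted p = 0.033), the partner of the receptor Cd180, and the tetraspanin Cd53 (0.74 ± 0.16, adjusted p = 0.033) were the other two called.

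The integrin chain Itgb2 was close to the threshold (1.11 ± 0.26, adjusted p = 0.052). Spi1, which encodes the myeloid master regulator PU.1, gave 1.09 ± 0.34 (adjusted p = 0.19), with 1.39 to 2.61 CPM in KI and 0.450 to 1.18 in WT. Unc93b1, the chaperone of endosomal Toll-like receptors, gave 0.57 ± 0.17, the exchange factor Vav1 0.63 ± 0.21, the phosphatase Inpp5d 0.43 ± 0.17, Ptprc 0.75 ± 0.38, Cd33 0.45 ± 0.38 and Runx1 0.55 ± 0.51. Cd180 held 1 to 2 counts in the WT libraries and 6 to 12 in KI, so no fold change is stated and its point in the plot of KI effects rests on these counts. Lcp1 (-0.26 ± 0.20, adjusted p = 0.73) and Coro1a (-0.03 ± 0.15, adjusted p = 0.98) were the members with a negative estimate.

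**Figure D3:**
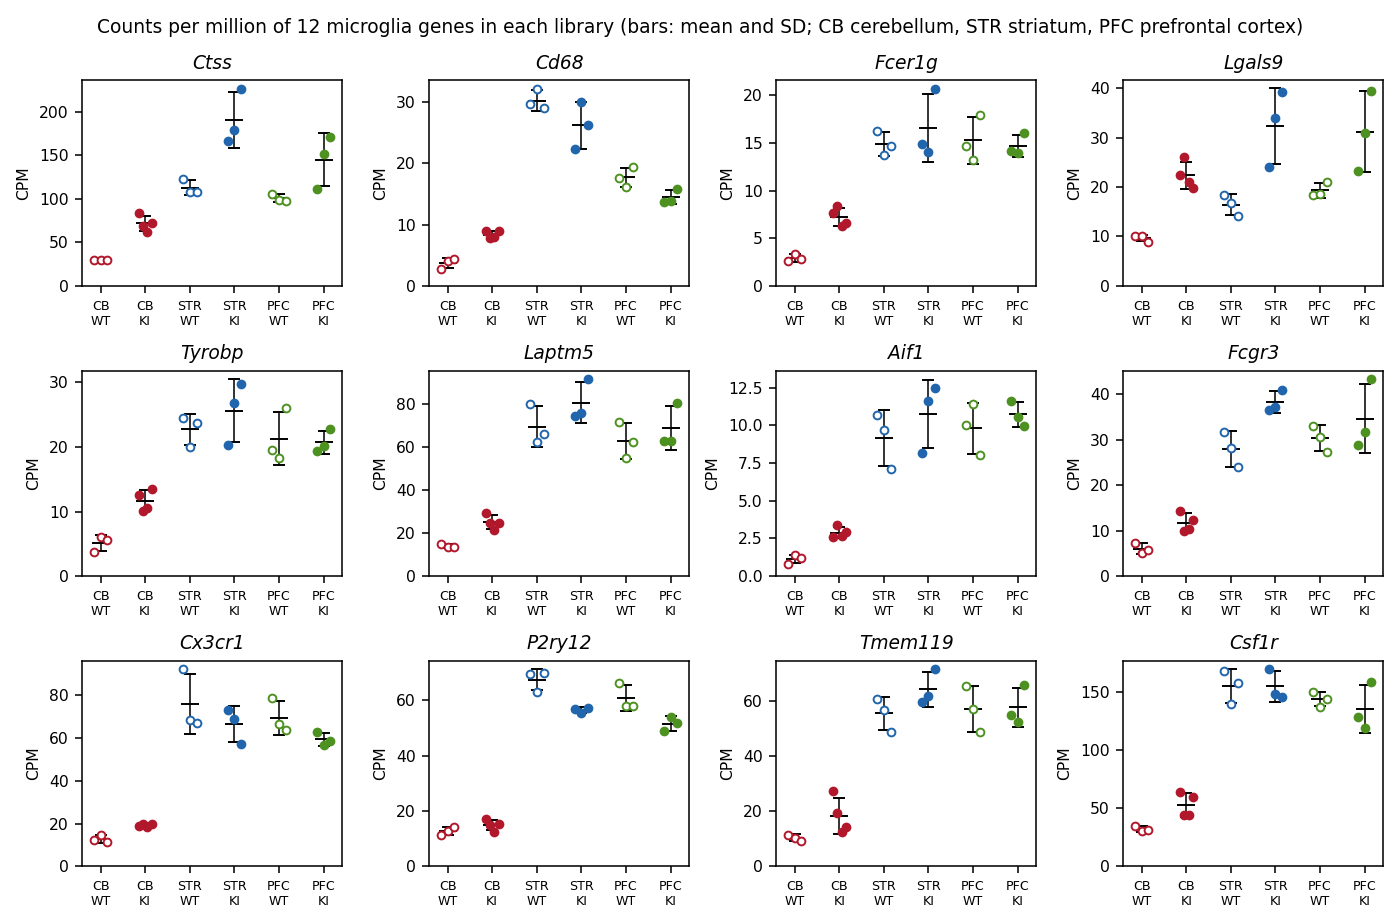
CPM (y axes from 0) of the 8 members with the smallest adjusted p in the cerebellum and of Cx3cr1, P2ry12, Tmem119 and Csf1r in each library, open points for WT and filled for KI, with mean and SD. The cerebellum KI points lie above the WT points in each panel but that of P2ry12, and forebrain points lie higher than cerebellum points in nearly all panels.

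The genes around the members moved as follows in the cerebellum. Of 27 further microglial genes 4 were called higher, where 0.517% of all genes were. Among the 4 were the transcription factor Irf8 (1.26 ± 0.21, adjusted p = 0.0040), Itgam, which pairs with Itgb2 (1.102 ± 0.19, adjusted p = 0.0055), and the costimulatory ligand Cd86 (1.83 ± 0.33, adjusted p = 0.0082). Their list had 24 positive estimates and a median of 0.51. Of 15 tested genes of the disease-associated state, edgeR called 0, with 4 at an unadjusted p under 0.05, and DESeq2 called 0. Their estimates were positive for 13 of the 15, with a median of 0.31. Of 10 ligands and partners, including Csf1 (0.35 ± 0.19, adjusted p = 0.57), Il34 (-0.01 ± 0.17) and Cx3cl1 (0.04 ± 0.16), edgeR called 0, 0 reached an unadjusted p under 0.05, and DESeq2 called 0.

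Markers of other cells were measured in the same libraries. The 10 interferon-induced genes, a list chosen with earlier results of these data known, were called higher in 10 of 10 cases in the cerebellum and in the striatum. In the prefrontal cortex 6 of 10 were. Of all genes, 0.517% were called higher in the cerebellum, 0.392% in the striatum and 15 of 16841 in the prefrontal cortex. The summed level of the 10 in the cerebellum was 184 to 329 CPM in KI and 38.1 to 53.0 in WT. Markers of border macrophages summed to 17.6 to 40.98 CPM in cerebellum KI and 16.8 to 21.1 in WT, edgeR called 0 of 8 (0 at an unadjusted p under 0.05, and 0 with DESeq2), and Mrc1 and Cd163 were detected in each cerebellum library. Markers of monocytes and neutrophils summed to 3.08 to 8.20 CPM in KI and 0.983 to 1.41 in WT. KI 2 held 4.93 CPM of Ly6c2 alone, and Ly6c2, Plac8, Chil3 and Cd177 were at 0 in 2 of the 3 WT libraries. Of those 10 genes 4 could be tested and 0 were called by edgeR (2 at an unadjusted p under 0.05) or DESeq2. Lymphocyte markers overlapped at 1.34 to 3.33 and 1.83 to 2.51 CPM. Astrocyte markers overlapped too, at 3609 to 4269 CPM in KI and 3574 to 3888 in WT, and oligodendrocyte markers at 5573 to 8261 and 6797 to 8021. Endothelial markers (265 to 300 and 263 to 272 CPM) and those of blood (160 to 352 and 117 to 451) overlapped as well. In these 4 lists edgeR and DESeq2 called 0 genes. Markers of cerebellar neurons summed to 5726 to 6745 CPM in KI and 7607 to 8447 in WT. Of these 8 markers edgeR called 1 lower, where 53 of 16841 genes were, and DESeq2 called 2. The 1 called by edgeR was Pcp2, a Purkinje cell gene (-1.16 ± 0.14, adjusted p = 0.00020), which had the lowest estimate in the list. The median over the 8 was -0.38. What these cells contribute to the microglial values was not tested.

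In the striatum fewer members differed between genotypes. Of the 41 members, 26 had a positive estimate, with a median of 0.089, and 2 were called higher, 4.88% of the members against 0.392% of all genes. Ctss read 166, 179 and 226 CPM in KI and 123, 108 and 108 in WT (0.75 ± 0.14, adjusted p = 0.017). Lgals9 read 24.1, 33.9 and 39.1 CPM in KI and 18.4, 16.7 and 14.1 in WT (0.98 ± 0.19, adjusted p = 0.022). The genotypes did not overlap for either. Both calls were lost with the striatum fitted alone (adjusted p = 0.071 and 0.13), and without KI 3 (0.12 and 0.16), WT 2 (0.11 and 0.11) or WT 3 (0.079 and 0.10). Lgals9 was also lost without KI 2 (0.056) or WT 1 (0.050).

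Fcgr3 and Lcp1 were also higher in each striatal KI library than in each WT library, which makes 4 members against 5.65% of all genes. P2ry12 and Gpr34 lay below without overlap, 2 members against 8.46% of all genes. P2ry12 read 56.8, 55.4 and 57.3 CPM in KI and 69.3, 63.0 and 69.9 in WT. Its log2 fold change of -0.25 ± 0.10 did not pass the test (adjusted p = 0.48). Homeostatic members had 4 of 12 positive estimates and a median of -0.18, and activation members 11 of 14 and a median of 0.18. Cx3cr1 (-0.19 ± 0.13), Csf1r (-0.004 ± 0.14) and Tmem119 (0.21 ± 0.21) overlapped between genotypes.

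In the prefrontal cortex edgeR called 0 of the 41 members, where 0.107% of all genes were called in either direction. An unadjusted p under 0.05 was reached by 7 members, and DESeq2 called 0. Ctss read 111, 152 and 171 CPM in KI and 106, 99.0 and 97.6 in WT, and Lgals9 23.1, 30.9 and 39.5 in KI and 18.4, 18.5 and 21.1 in WT. Both were higher in each KI library, with log2 fold changes of 0.52 ± 0.14 (adjusted p = 0.43) and 0.69 ± 0.19 (adjusted p = 0.43), and Fcgr1 was the third such member (4.38% of all genes). Cx3cr1, P2ry12, Gpr34, Fcgr2b and Cd68 were lower in each KI library, 5 members or 12.2% against 4.32% of all genes. P2ry12 read 48.7, 54.1 and 51.8 CPM in KI and 66.1, 57.9 and 58.0 in WT (-0.24 ± 0.10, adjusted p = 0.81). The median was -0.23 over the homeostatic members, of which 2 of 12 were positive, and -0.02 over the activation members.

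Whether the KI effect differed between regions was tested directly. The cerebellar effect exceeded the striatal effect for Cd68, the 1 member called (log2 difference 1.38 ± 0.20, adjusted p = 0.026), where 0.0119% of all genes were called. It exceeded the prefrontal effect for the same gene (1.46 ± 0.20, adjusted p = 0.012), where 0.0178% were. Cd68 was 22.4, 30.0 and 26.3 CPM in striatum KI against 29.7, 32.1 and 29.0 in WT, and 13.8, 13.9 and 15.9 in prefrontal cortex KI against 17.7, 16.1 and 19.3 in WT. The forebrain estimates were below 0 (-0.21 ± 0.14 and -0.29 ± 0.14) while the cerebellar one was 1.17.

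These Cd68 calls were narrow. With the sex proxy as a covariate the adjusted p against the striatum was 0.053, and it ranged from 0.052 to 0.11 where cerebellum KI 1 or KI 4, cerebellum WT 2, striatum KI 1, KI 3, WT 1 or WT 2, or prefrontal cortex KI 2 was left out. Against the prefrontal cortex it was 0.050 to 0.055 without prefrontal cortex KI 1, KI 2 or WT 1. DESeq2 called 3 and 5 members in these contrasts. An unadjusted p under 0.05 was reached by 24 members against the striatum, with 37 of 41 differences positive and a median of 0.60, and by 26 against the prefrontal cortex, with 38 positive and a median of 0.78. The medians over all tested genes were 0.01 and 0.008. For Fcer1g the difference from the prefrontal effect was 1.37 ± 0.24 (adjusted p = 0.066). Between striatum and prefrontal cortex edgeR called 0 members and 0% of all genes, 0 members reached an unadjusted p under 0.05, and DESeq2 called 0 members.

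Homeostatic and activation genes were set against each other within each library by the ratio of their summed CPM, a measure in which total depth cancels. In the cerebellum the ratio of activation to homeostatic members was 1.02 to 1.11 in KI and 0.751 to 0.905 in WT. In the striatum it was 0.621 to 0.8292 in KI and 0.475 to 0.539 in WT, and in the prefrontal cortex 0.580 to 0.712 and 0.462 to 0.5256. KI libraries lay above WT libraries in each of the 3 regions.

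Without Ctss and Lgals9, a split made after their values were seen, the shift was smaller in the cerebellum and striatum and absent in the prefrontal cortex. Without them the ratio was 0.456 to 0.546 in KI and 0.391 to 0.519 in WT in the cerebellum, 0.291 to 0.365 and 0.266 to 0.310 in the striatum, and 0.295 to 0.307 and 0.246 to 0.304 in the prefrontal cortex. The genotypes overlapped in each of the 3 regions. The medians in KI and WT were 0.512 and 0.462 in the cerebellum, 0.331 and 0.277 in the striatum, and 0.299 and 0.302 in the prefrontal cortex. Relative to Cx3cr1, Ctss stood at 3.39 to 4.41 in cerebellum KI and 2.03 to 2.64 in WT, at 2.27 to 3.96 and 1.33 to 1.61 in the striatum, and at 1.78 to 2.92 and 1.35 to 1.54 in the prefrontal cortex. The corresponding ratio of Cd68 to Cx3cr1 was 0.391 to 0.470 in cerebellum KI and 0.228 to 0.383 in WT, and it overlapped between genotypes in both forebrain regions.

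**Figure D4:**
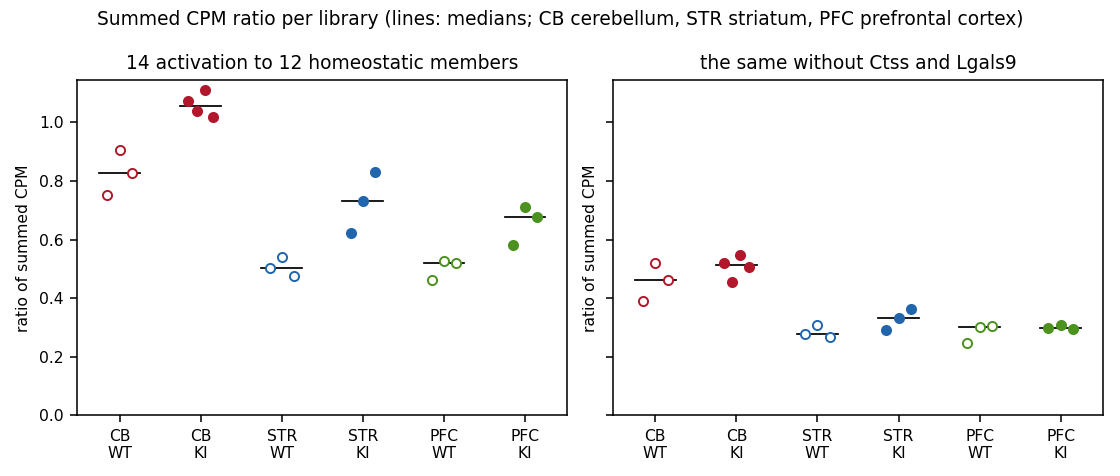
Ratio of the summed CPM of 14 activation members to that of 12 homeostatic members in each library (y axis from 0), with all members on the left and without Ctss and Lgals9 on the right, and lines at the medians. On the left the KI points lie above the WT points in each region, and on the right the genotypes overlap.

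Some members share exon bases with a gene on the opposite strand, and the library kit does not mark strand, so reads in those bases cannot be assigned to one gene. Csf1r shares 873 bases with Hmgxb3, Lcp1 311 and 219 with Gm15628 and Gm15629, Cd180 182 with Mast4 and Fcgr2b 155 with Gm38204. Runx1 shares 106 with Gm26626, Cx3cr1 78 with Gm33858, Coro1a 26 with Bola2 and P2ry12 9 with Med12l. Of the members called in the cerebellum, Csf1r and Cx3cr1 are among these.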

How the data were processed

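The authors prepared cDNA with the SMART-Seq v4 kit, which does not mark strand, and Nextera XT, and deposited read counts per Ensembl gene in each library, not normalized. The submitters' processing notes name bcl2fastq 2.17.1.14, STAR 2.5.2b, HTSeq, DESeq2 1.10.1 and build GRCm38.p3, while the methods name Cuffdiff, which cannot be run on counts. A second deposited table of normalized values was not used here. Groups came from the sample labels. Members and gene lists were chosen with earlier results of these data known.

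The counts went into edgeR 4.0.16 under R 4.3.3: filterByExpr on the 6 groups, TMM and 1 quasi-likelihood fit over 19 libraries (13 residual degrees of freedom, biological coefficient of variation 0.191), with Benjamini-Hochberg adjustment over 16841 genes at a threshold of 0.05. Errors of fold changes are SE, taken as the absolute log2 fold change divided by the square root of the F statistic of its test. RPKM used union exon lengths of GENCODE M21. Both count tests were also run on simulated data with known changes, with means and dispersions taken from the fit to these data. Alternatives were DESeq2 1.42.0, its size factors in edgeR, 2 other filters, each region alone, replicate blocks (also in limma 3.58.1), a sex proxy from Xist and Y-linked genes, thinned counts and each library left out. Added after seeing the data were the block across striatum and prefrontal cortex and the fit without 2 cerebellum libraries.

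Library totals were 10639110 to 17431284 counts. The SE of fold changes and the SD of levels both include the spread between libraries. No 2 libraries of a group agreed within sampling noise (chi-square per degree of freedom 4.75 to 28.9). Values per library are given for members called between genotypes or between KI effects (up to 8 by adjusted p in each comparison) and for Cx3cr1, P2ry12, Tmem119 and Csf1r, and up to 4 genes are named per other list. Lilrb4a was not analysed here. Striatum and prefrontal cortex libraries of the same genotype and number deviated together (r of 0.23 to 0.37 in 6 of 6 pairs), so these numbers were taken to pair them. A further called gene among the other microglial genes is not reported here.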

Additional observations from a re-analysis of the deposited data

Results flagged for a closer look

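In 3 of 41 members 1 of the 4 cerebellum KI libraries stood apart from the other three by Dixon's test, which chance would give in about 1 of 20 groups. Sall1 was low in KI 3, at 2.52 CPM against 4.67 to 4.82 in the others. P2ry6 was low in KI 1, at 0.957 CPM against 1.63 to 1.68. Tlr2 was high in KI 3, at 3.59 CPM against 2.11 to 2.14. KI 3 is also the library with 4967 CPM of choroid plexus markers, and what that RNA contributes to its Sall1 and Tlr2 values was not tested. None of these members was called in the cerebellum.

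The KI effect on Cd68 differed between regions by the test of the difference itself, by 1.38 on the log2 scale between cerebellum and striatum and by 1.46 between cerebellum and prefrontal cortex. Cd68 was higher in 4 of 4 cerebellum KI libraries than in each WT library there.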

How the results depend on the processing

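The number of members called higher in the cerebellum (14) was 7 with each region fitted alone and 7 in limma voom with a random block. That block joined some cerebellum and forebrain libraries that differ in the sex proxy. The number called ranged from 7 to 16 over 19 fits without 1 library. The 2 striatal calls fell to 0 with each region alone, and ranged from 0 to 2 over the fits without 1 library. The 1 call for cerebellum minus striatum became 3 with DESeq2, 0 in voom and 0 with the sex proxy (0 to 1 without 1 library), and that for cerebellum minus prefrontal cortex became 5 with DESeq2 and 0 in voom (0 to 2 without 1 library). Medians in the cerebellum ranged from 0.60 to 0.72 for homeostatic and from 0.58 to 0.82 for shared myeloid members without 1 library. The other counts stayed within 1.5 times their value. The causes of these changes were not tested.

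Replicate numbers of KI and WT libraries of a region did not pair them (r of -0.25 to 0.17 for same-numbered libraries). With the number as a replicate block within regions, 11 members were called in the cerebellum, 0 in the striatum, 0 for either difference from the cerebellum, 34 in each WT comparison with the cerebellum and 3 between WT striatum and prefrontal cortex, and the homeostatic median was 0.61.

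Signs changed for P2ry6 in the cerebellum (-0.14 without the 2 libraries high in choroid plexus RNA, -0.07 without WT 1 and -0.01 without WT 3) and for Coro1a there (0.04 without WT 2). They also changed for Csf1r in the striatum (0.002 to 0.06 under 7 alternatives) and for Tmem119 in the prefrontal cortex (-0.01 with counts thinned to the smallest total, -0.09 without KI 3 and -0.09 without WT 3). None of these was called. Depth limits the 16 members with under 30 counts in a WT cerebellum library.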
